A study of Arabidopsis thaliana with 2 samples.

Results

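Class III peroxidases are secreted plant enzymes, and 60 Arabidopsis thaliana loci of this family were taken here from a list of locus tags. Of the 60, 44 had a probe set that the array annotation assigns to that locus alone, among 13286 genes measured in that way, and each of the 44 had 1 such probe set. A further 7 loci were covered only by probe sets shared with another locus, and 9 had no probe set listed. The family was measured in whole seedlings of OE-N6, a transgenic line in the Columbia-0 background that overexpresses AT4G16790 (called NHRGP in the labels), and of wild-type Columbia-0. All seedlings were 2 weeks of age, raised at 22 °C in days of 16 h of light and 8 h of dark, on a diluted Murashige and Skoog (MS) medium to which 2% sucrose was added. Each genotype was hybridised to 1 Affymetrix ATH1 array, on which short probes read each transcript. The sources used here do not give the promoter that drives the transgene, the number of independent lines or any pooling of seedlings.

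Class III peroxidases carry a haem group and act in the cell wall and vacuole. With hydrogen peroxide they couple phenolic compounds into lignin and suberin and crosslink wall proteins, which stiffens the wall, and in another cycle they make reactive oxygen species that loosen it or serve in defence. The plant family is large, many of its genes arose by tandem duplication, and many members are known from roots.

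A single array per genotype allows no replicate check and no test, and this limits how precise any value can be. Values are signal in the deposited intensity units, and every ratio is OE-N6 over wild type, on the log2 scale or as a fold. A floor of 112 units, the 40th percentile of both arrays' values, replaced any lower signal in a ratio. A gene passed the signal filter when its mean signal over both arrays reached 192 units, the median of all non-control probe sets. AT4G16790, the overexpressed gene, reached 5171 in OE-N6 against 91.1 in the wild type, which is under the floor, and so was at least 46.2-fold higher. Of the 44 peroxidases, 31 lay above the floor on both arrays, 3 on the OE-N6 array alone, and 10 on neither. The filter was passed by 25, of which 3 had 1 array under the filter value and passed through the other: AT5G19890 and AT1G49570 through the wild-type array, and AT5G39580 through the OE-N6 array.

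Among peroxidases with a probe set of their own, those with an OE-N6 to wild-type difference of 1.5-fold or more were mostly higher in OE-N6. The probe set that AT3G17070 shares with an unlisted locus was 1.74-fold lower and is outside these counts. Of the 25 that passed, 5 were at least 1.5-fold higher, against 2.43% of all 5848 genes that passed, and 2 were at least 1.5-fold lower, against 2.41%. At 2-fold, 1 was higher (background 0.547%) and 1 lower (background 0.496%). Under quantile scaling 6 members were at least 1.5-fold higher (background 2.58%) and 1 lower (1.97%), and under loess scaling the same numbers stood against 2.68% and 1.88%. With the filter raised to the 75th percentile, 14 members passed, of which 3 were at least 1.5-fold higher (background 1.8%) and 1 lower (1.42%). Log2 ratios above 0 were found for 17 of the 25, against 46.7% of all genes that passed, and below 0 for 8. The median log2 ratio of the 25 was 0.17, against -0.02 over all genes that passed, and the median of all 44, with those under the floor on both arrays at 0, was 0.10.

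**Figure D1:**
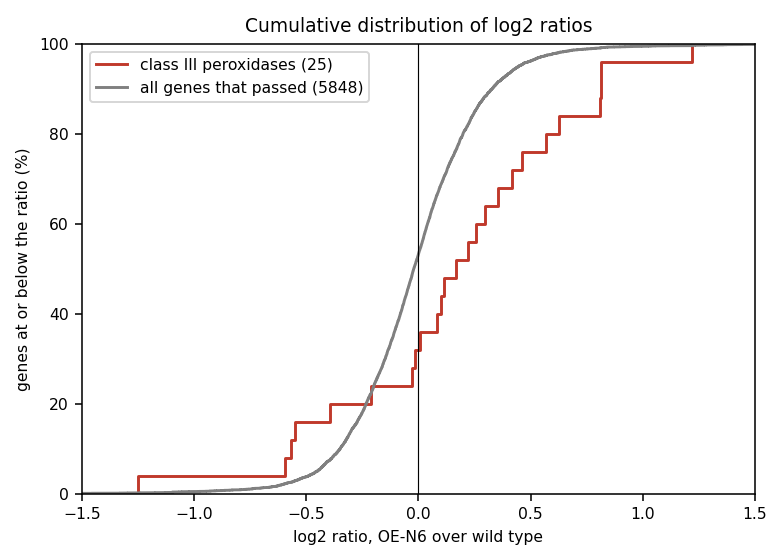
Cumulative distribution of the log2 ratio of OE-N6 over wild type (x axis) for the 25 class III peroxidases that passed the signal filter and for all 5848 genes that passed; the y axis is the percentage of genes at or below each ratio. The line of the peroxidases lies to the right of the other above a ratio of 0, and to its left at the low end.

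The central ratios of the members that passed were also more spread than those of all genes that passed. The middle of the 25 ratios ran from -0.03 (25th percentile) to 0.46 (75th percentile), against -0.19 to 0.15 over all genes that passed. Only 10 of the 25 lay within 1.2-fold, against 68.9% of all genes that passed. By rank over the 5848 genes, AT3G01190 was the 23rd highest and AT5G19890 the 12th lowest. AT5G19890 is 1 of the 3 members that passed with 1 array under the filter value, so its place in this ranking rests on its wild-type signal.

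AT3G01190 had the largest difference upward. Its signal was 519 in OE-N6 and 223 in the wild type, a 2.33-fold difference and a log2 ratio of 1.22. It was of moderate brightness, at percentile 73.0 of the probe sets in OE-N6 and percentile 53.2 in the wild type.

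A set of 3 members followed at nearly equal ratios. AT2G18980 had a signal of 885 in OE-N6 and 502 in the wild type, 1.76-fold higher. AT5G66390 (PRX72) had 488 in OE-N6 and 278 in the wild type, also 1.76-fold higher. PRX72 is known for its part in stem lignin and, with other peroxidases, in the lignin of the Casparian strip, the root endodermal barrier. AT5G64120 (PRX71) had 2558 in OE-N6 and 1460 in the wild type, 1.75-fold higher. PRX71 is known to stiffen walls and restrict cell expansion, and it was the brightest of the 5 members past 1.5-fold. AT4G30170 was the last of them, with 1435 in OE-N6 and 928 in the wild type, 1.55-fold higher.

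AT5G19890 had the largest difference downward, with a signal of 122 in OE-N6 and 290 in the wild type, 2.38-fold lower. It passed the filter through the wild-type array alone, and the OE-N6 signal lay close to the floor, so the size of this difference rests on a value near the dim end of the array. AT4G36430 had 564 in OE-N6 and 853 in the wild type, 1.51-fold lower, just past the threshold, and under quantile scaling (-0.57) and loess scaling (-0.57) its log2 ratio was short of 1.5-fold.

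The members just inside 1.5-fold lay on both sides. PRX52, which is known to take part in stem lignin, had 197 in OE-N6 and 292 in the wild type, 1.48-fold lower. AT5G39580, known from root hair growth, had 258 in OE-N6 and 174 in the wild type, 1.48-fold higher, and it passed 1.5-fold under quantile scaling (0.59) and loess scaling (0.60). AT1G49570 had 170 in OE-N6 and 248 in the wild type, 1.46-fold lower. Of these 3, PRX52 had both signals at or above the filter value, and the others had 1 signal below it.

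**Figure D2:**
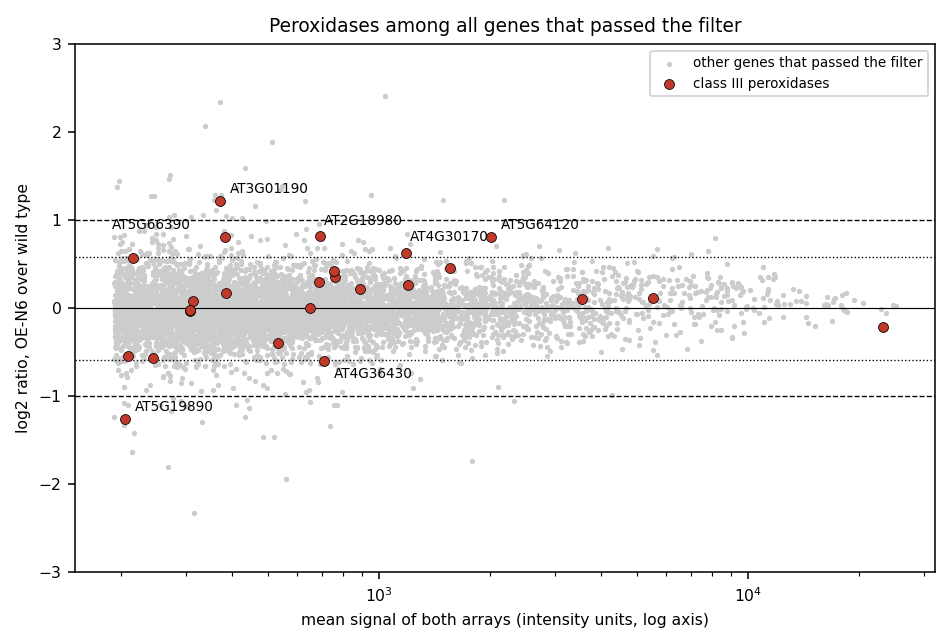
Log2 ratio of OE-N6 over wild type (y axis) against the mean signal of both arrays (x axis, log scale) for 25 class III peroxidases (red) and the other genes that passed the filter (grey). Dotted lines mark 1.5-fold and dashed lines 2-fold, and the 7 labelled loci are the peroxidases past 1.5-fold, 5 above and 2 below; the overexpressed gene lies above the axis and is not drawn.

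The brightest peroxidase probe sets differed less between the arrays. Brightness is given as signal on each array, and because probes differ in how well they bind, the order of signals is not an order of transcript abundance. PRXR1 (AT4G21960) had a signal of 21512 in OE-N6 and 24872 in the wild type, at percentile 99.93 in OE-N6 and percentile 99.97 in the wild type, a log2 ratio of -0.21. AT2G37130 had 5746 in OE-N6 and 5315 in the wild type (log2 ratio 0.11). AT1G71695 had 3662 in OE-N6 and 3416 in the wild type (0.10). These 3 lay above the 90th percentile on both arrays, and none of them reached 1.2-fold.

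The next members by brightness were all higher in OE-N6. AT5G64100, known from root hair growth, had 1804 in OE-N6 and 1310.3 in the wild type, 1.38-fold higher. AT3G21770 had 1309.5 in OE-N6 and 1095 in the wild type, a log2 ratio of 0.26. AT4G26010, also known from root hairs, had 954 in OE-N6 and 819 in the wild type (0.22). The other 2 of the 10 brightest were AT5G17820, with 855 in OE-N6 and 670 in the wild type (0.35), and AT3G28200, with 864 in OE-N6 and 647 in the wild type (0.42). Of the 10 brightest members 9 were higher in OE-N6, PRXR1 being the exception. Among all genes that passed, 57.2% of those with mean signals above 1494 were above 0, and 45.2% of those between 578 and 1494.

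By brightness, the members of the middle class were most often above 0. Of 9 members with mean signals between 578 and 1494, 8 were above 0, with a median log2 ratio of 0.30, where 45.2% of 1725 genes of that brightness were above 0. Of 5 brighter members, 4 were above 0 with a median of 0.11, against 57.2% of 949 genes. Of 11 members between 192 and 578, 5 were above 0 and 6 below, with a median of -0.02, against 44.5% of 3174 genes. Calls at 1.5-fold were most frequent among genes of that dimmest class, at 2.96% higher and 3.25% lower, against 1.74% and 1.86% in the middle class and 1.9% and 0.632% in the brightest. The members held 2 higher and 1 lower call in the dimmest class, 2 and 1 in the middle class, and 1 and 0 in the brightest.

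**Figure D3:**
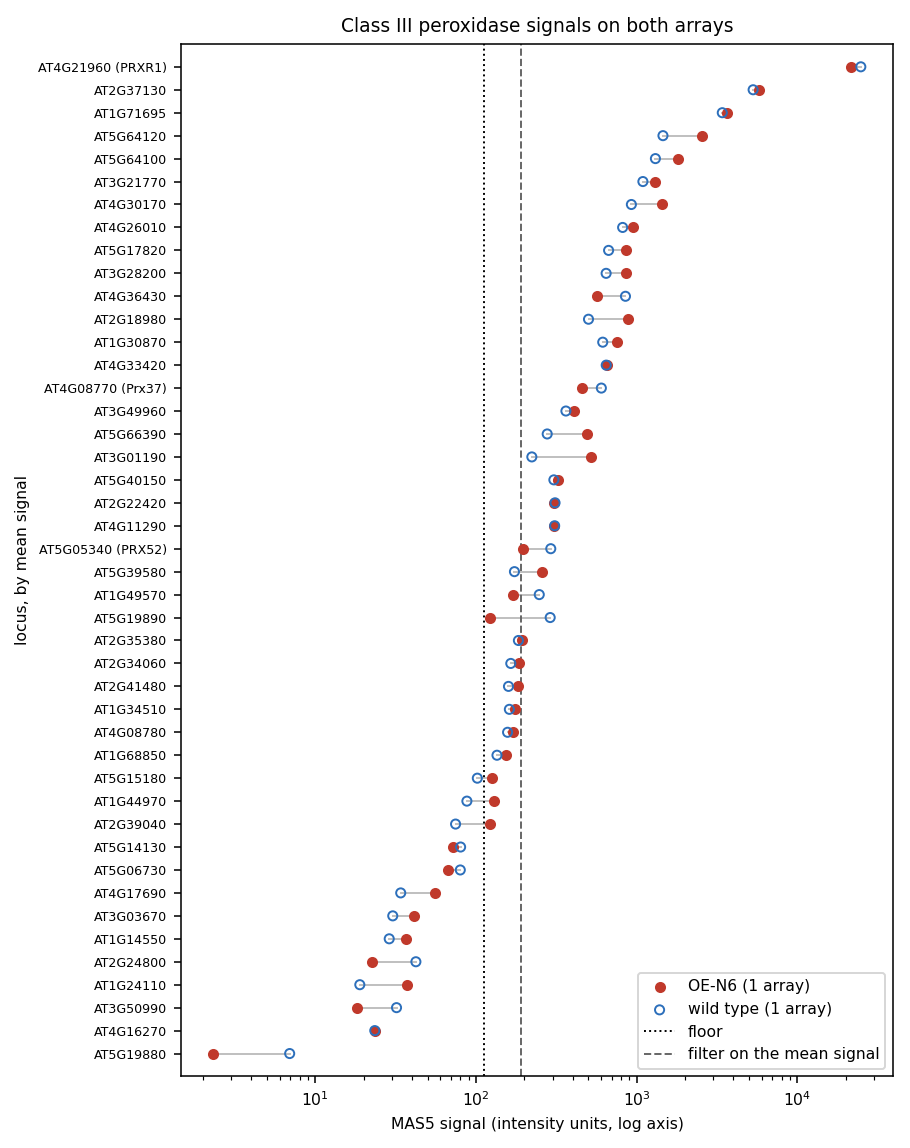
Signal of the 44 class III peroxidases with a probe set of their own, on the OE-N6 array (filled) and the wild-type array (open), on a log axis; rows run by mean signal, the dotted line is the floor of 112 units and the dashed line the filter value of 192. PRXR1 stands alone at the top, most members of middle brightness have the filled point to the right, and 10 members lie left of the floor on both arrays.

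The remaining members that passed had ratios closer to 0, apart from Prx37. Prx37 (AT4G08770), known from vascular bundles and from restricted growth when overexpressed, had 460.0 in OE-N6 and 604 in the wild type, 1.31-fold lower. AT1G30870 had 757 in OE-N6 and 616 in the wild type (log2 ratio 0.30). AT3G49960 had 408 in OE-N6 and 363 in the wild type (0.17). AT5G40150 (0.08), AT4G33420 (0.01), AT4G11290 (-0.02) and AT2G22420 (-0.03) had nearly equal signals on the arrays. The signs of AT4G11290 and AT2G22420 turned under quantile and loess scaling, where 19 of the 25 members were above 0. All genes that passed moved upward as well. Their median log2 ratio of -0.021 with the deposited values became -0.003 with quantiles and 0.001 with loess. The share of all genes above 0 is not given for these scalings, so the 19 have no background beside them.

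With the floor applied, no member that did not pass the filter had a ratio of 1.5-fold. For members under the floor on either array, the floor itself limits the ratio. Without it, AT2G39040 had a log2 ratio of 0.71, past 1.5-fold. The 6 that lay above the floor on both arrays, AT2G35380, AT2G34060, PRX25 (AT2G41480), AT1G34510, AT4G08780 and AT1G68850, were all above 0, with log2 ratios from 0.07 to 0.19. PRX25, known from stem lignin, was the highest of them, with 183 in OE-N6 and 160 in the wild type. AT5G15180, AT1G44970 and AT2G39040 were above the floor in OE-N6 only, and were at least 1.09-fold to at least 1.15-fold higher. Over all 31 members above the floor on both arrays, 23 were above 0 and 8 below, with a median log2 ratio of 0.17, against 46.8% above 0 and a median of -0.02 over 6910 such genes.

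The 10 members under the floor on both arrays have no ratio. Their signals ran from 2.32 to 71.6 in OE-N6 and from 6.94 to 80.3 in the wild type, and 5 were higher and 5 lower. PER36 (AT3G50990), which acts in the release of seed coat mucilage, was among them, with 18.2 in OE-N6 and 32.1 in the wild type. So was AT4G16270, which acts with AT1G44970 in the anther wall, with 23.6 in OE-N6 and 23.5 in the wild type. The others were AT5G14130, AT5G06730, AT4G17690, AT3G03670, AT1G14550, AT2G24800, AT1G24110 and AT5G19880.

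By known role, the lignin-linked members had ratios on both sides of 0 and the root hair members were all above 0. Of 8 listed peroxidases linked to lignin, 5 passed the filter: PRX72 and PRX71 were past 1.5-fold higher, PRX52 was 1.48-fold lower, and AT4G33420 and AT2G22420 lay near 0, for a median log2 ratio of 0.01. The 3 measured members known from root hairs, AT5G64100, AT4G26010 and AT5G39580, had log2 ratios of 0.46, 0.22 and 0.57, and none passed 1.5-fold under the deposited scaling. AT5G39580 passed the filter through the OE-N6 array alone. Ratios above 0 were also found for 17 of all 25 members that passed, and for 46.7% of all genes that passed. Of 5 listed members of the endodermal Casparian strip group, 3 were measured and 2 passed the filter, PRX72 with 0.81 and AT4G11290 with -0.02. AT1G44970, also of this group, did not pass. It had 129 in OE-N6 and 87.9, under the floor, in the wild type, and so was at least 1.15-fold higher. These role groups hold few members, and some members belong to more than one.

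Several well-known members could not be read separately with the array annotation used here. A locus without an entry there may still have probes on the array, which was not checked. PRXCA and PRXCB, the peroxidases best known for the oxidative burst of pathogen defence, had no probe set listed. The same held for RCI3, a cold-induced gene, for PER64, which builds the Casparian strip, for PER4, for PA2, for PRX2 (AT1G05250), for AT1G05240 and for AT3G32980.

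Tandem neighbours are members next to each other in the RefSeq gene order with at most 1 gene between them. The family list held 11 such pairs with 21 members in 10 clusters, and in 3 pairs both genes had a probe set of their own. AT5G64100 and PRX71 were both higher in OE-N6, at log2 ratios of 0.46 and 0.81. AT5G64110, the gene between them, is not among the listed loci, and the gene tables used here give it no role; the list was taken as given and may not hold every peroxidase gene. It had 800 in OE-N6 and 771 in the wild type, a log2 ratio of 0.05. The neighbours Prx37 and AT4G08780 had ratios on opposite sides of 0, at -0.39 and 0.11. AT5G19890, the lowest member, adjoins AT5G19880, whose signal was 2.32 in OE-N6 and 6.94 in the wild type, under the floor on both.

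In 3 further pairs a single probe set reads both genes, and the contribution of each gene cannot be told apart. The probe set of AT4G37520 and AT4G37530 had 1818 in OE-N6 and 1274 in the wild type, 1.43-fold higher. That of AT2G38380 and AT2G38390 had 2274 in OE-N6 and 2015 in the wild type, a log2 ratio of 0.17. That of AT2G18140 and AT2G18150 had 627 in OE-N6 and 630.5 in the wild type, a log2 ratio of -0.01. AT3G17070 shares its probe set with AT3G42570, which is not a listed locus, and this probe set had 249 in OE-N6 and 432 in the wild type, 1.74-fold lower. Probes assigned to 1 locus may also bind close relatives, which was not tested.

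**Figure D4:**
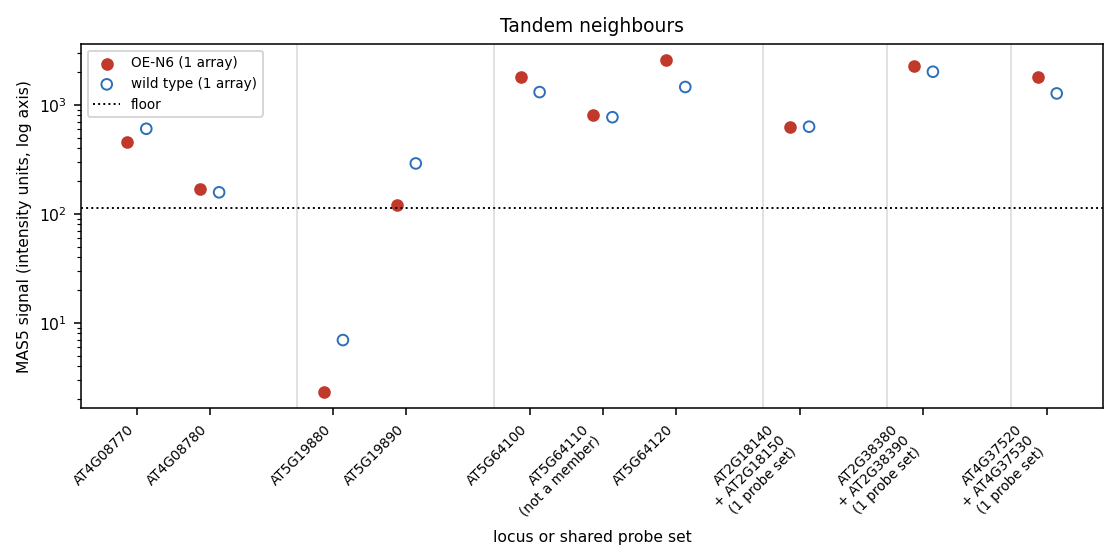
Signals on the OE-N6 array (filled, left of each pair) and the wild-type array (open) for tandem peroxidase genes, on a log axis, with the floor as a dotted line. The first 7 positions are genes with a probe set of their own, among them AT5G64110, which is outside the list, and the last 3 are probe sets shared by a pair of neighbours; AT5G64120 and AT5G64100 are higher in OE-N6, while AT5G19890 and AT4G08770 are lower.

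Of the genes on either side of the 7 peroxidases past 1.5-fold, none that lay above the floor was itself past 1.5-fold. Of 14 flanking positions, 7 had a gene with its own probe set, 5 of these were above the floor, and their log2 ratios ran from -0.33 to 0.22. The others, AT2G18970 and AT5G19880, lay under the floor on both arrays and have no ratio. Over all genes that passed, 2.43% were at least 1.5-fold higher and 2.41% lower, so none among 5 genes is near that share. For PRX71 the flanking values were 0.05 (AT5G64110) and 0.12 (AT5G64130), and for AT4G36430 they were 0.22 (AT4G36420) and -0.33 (AT4G36440).

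Among known regulators of peroxidase genes, UPB1 was lower in OE-N6. UPB1 (UPBEAT1) is a transcription factor known to repress peroxidase genes in the root tip, where the balance of reactive oxygen species sets the change from division to elongation. Its signal was 430 in OE-N6 and 721 in the wild type, 1.67-fold lower. Of its 3 listed target peroxidases, AT5G17820 had a log2 ratio of 0.35, AT4G11290 had -0.02 and AT4G16270 was under the floor on both arrays. KUA1 (AT5G47390), a MYB-like factor known to repress peroxidase genes in leaves, had 985 in OE-N6 and 1079 in the wild type, a log2 ratio of -0.13. Whether these regulators bear on the peroxidase values was not tested.

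Few genes that work beside peroxidases were measured by a probe set of their own. Of 18 listed genes of monolignol synthesis, which makes the building blocks of lignin, HCT passed, with 2426 in OE-N6 and 2384 in the wild type (log2 ratio 0.03). Of 26 listed genes for the removal of hydrogen peroxide and superoxide inside the cell, the chloroplast ascorbate peroxidases SAPX and TAPX passed, with log2 ratios of -0.02 and -0.08. Of 17 listed laccases 1 had a probe set of its own, LAC16, and it lay under the floor on both arrays. No listed respiratory burst oxidase, Casparian strip or suberin gene with a matched name had a probe set of its own. The signal of these matched genes is therefore not known here. Some listed loci without a matched name, left out of these counts, did have one. The oxidase loci AT1G19230, AT4G25090 and AT4G11230 lay under the floor on both arrays. The Casparian strip locus AT4G20140 had 138 in OE-N6 and 133 in the wild type (log2 ratio 0.05) and did not pass the filter. Of the 11 genes of all 10 lists that passed, the root hair expansin EXPA18 was past 1.5-fold higher and UPB1 past 1.5-fold lower. Over all genes that passed, 2.43% were at least 1.5-fold higher and 2.41% lower. EXPA18 passed the filter through the OE-N6 array alone.

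Root and green tissue markers bear on a family with many root members. In whole seedlings fewer cells of a type and less RNA per cell cannot be told apart. Of 13 root hair markers 2 had a probe set of their own, with a summed signal of 485 in OE-N6 and 343 in the wild type. EXPA18 had 290 in OE-N6 and 188 in the wild type (log2 ratio 0.62), and EXPA7 had 196 in OE-N6 and 155 in the wild type (0.34). EXPA7 did not pass the filter, and EXPA18 passed it through the OE-N6 array alone. Of 12 root markers, PYK10, an abundant root beta-glucosidase, was measured, with 16513 in OE-N6 and 15970 in the wild type (0.05). The 4 of 14 green tissue markers measured summed to 48983 in OE-N6 and 47694 in the wild type, with log2 ratios from -0.18 (LHCB4.2) to 0.16 (PSAN). The measured root and green tissue markers lay within 1.2-fold, and the 2 root hair markers differed by more than that. The part of these tissues in the peroxidase values was not tested.

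Control probe sets also differed between the arrays. Over 20 spike probe sets above the floor, the log2 ratio had a mean of 0.09 with an SD of 0.20. The signal of 3' probe sets over 5' or middle ones, a sign of RNA quality, was higher in OE-N6 for 9 of 10 pairs, with log2 differences from -0.20 to 0.39. Their part in the peroxidase ratios was not tested.

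**Figure D5:**
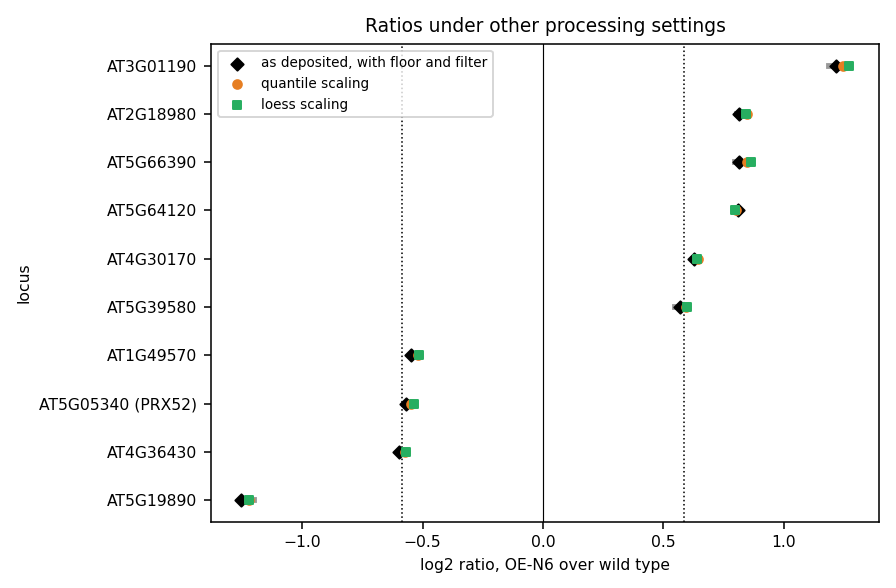
Log2 ratio of OE-N6 over wild type (x axis) for the 10 peroxidases with the largest differences, under the deposited scaling (black), quantile scaling (orange) and loess scaling (green); grey bars span all settings run and dotted lines mark 1.5-fold. AT4G36430 and AT5G39580 are the loci whose ratio crosses a dotted line.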

How the data were processed

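Whole-seedling RNA (6 µg per array, per the labels' protocols) of OE-N6 and of the wild type was measured on 1 array each. The deposited values are signal intensity, 1 value per probe set, made with MAS5 per the submitters' processing notes. Those notes do not state a version, a scaling target or the background settings, and detection calls were not used. The deposited intensity has a mean of 500 on both arrays once 2% of probe sets are left out at each end, so a change shared by most transcripts would be hidden. Of 22810 probe sets 64 are controls, and 13436 of the 13513 with 1 gene matched RefSeq's gene table (assembly TAIR10.1), the source of names and neighbours.

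The probe set of highest mean signal stood for a gene. Log2 ratios were taken after the floor, and counts were made at 1.5-fold and 2-fold among genes that passed the filter. Members past 1.5-fold, the 10 brightest, tandem neighbours and those with a listed role were named with values; of each related list, the highest and lowest that passed, with EXPA7 added after its value was seen. In the related lists 6 of 132 loci were left out because their symbol did not match the table. Members and lists were chosen with earlier results of these data known. The ratio and the 2-fold call were tested on simulated data for genes that passed the filter, with changes larger than those found among the peroxidases. Calls at 1.5-fold were not tested in this way. Python 3.11.15, numpy 2.4.6, pandas 2.3.3, statsmodels 0.14.6 and matplotlib 3.10.9 were used.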

Additional observations from a re-analysis of the deposited data

How the results depend on the processing

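Results were recomputed under 10 alternatives: arrays centred on their medians, scaled by quantiles or by loess; a lower floor (25th percentile), none, or a pseudocount of 7.89 in its place; the mean over probe sets, no signal filter, a filter at the 75th percentile, and the addition of probe sets shared by listed loci. Only the 3 scalings and the pseudocount could change the ratio of a member that passed: these members lie above the floor on both arrays and have 1 probe set each, so the other alternatives leave their ratios as they are. Under those 4, no member past 1.5-fold changed direction. Under quantile and loess scaling the count of members at least 1.5-fold lower was 1, in place of 2, because AT4G36430 was then short of 1.5-fold. The filter at the 75th percentile left 14 members, of which 3 were at least 1.5-fold higher (1.8% of 2674 genes) and 1 lower (1.42%), and 0 reached 2-fold upward and 0 downward; it removes the dimmer members by construction. The median log2 ratio of the members that passed ran from 0.10 without the filter to 0.28 with the stricter one. A change in a ratio was judged against the SD of the spike ratios, 0.20, and the largest move among the 25 members that passed was 0.09, under loess scaling. Among dimmer members the floor decides: without it the log2 ratios were 0.71 for AT2G39040, 0.55 for AT1G44970 and 0.30 for AT5G15180, in place of bounds of 0.13, 0.20 and 0.16. No paired analysis was possible because there is a single array for each genotype. Signals near the floor limit the dim members, AT5G19890 among them.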
